A study of Xenopus laevis with 8 samples.

Results

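The NeuroD and NHLH genes measured here were neurod4.L, neurod1.S, neurod1.L, nhlh1.L and nhlh1.S, 5 genes with 1 probe set each among the 32539 probe sets tested. They were all the probe sets whose platform symbol, without the homeolog suffix, was neurod1, neurod2, neurod4, nhlh1 or nhlh2. No probe set was listed under neurod2, nhlh2 or neurod4.S, and 16765 probe sets carried no symbol. Most genes of Xenopus laevis exist as 2 homeologs, distinguished by the suffixes .L and .S.

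The tissue was anterior endoderm of Xenopus laevis embryos, dissected at stage 15 (Nieuwkoop and Faber, NF15). All embryos had received mRNA for Ngn3-GR, a fusion of the proneural factor Neurogenin 3 with a glucocorticoid receptor domain, in 2 dorsal vegetal blastomeres at the 8-cell stage. The DEX group (4 arrays) was kept with 10 µM dexamethasone, the ligand that activates the fusion, for 4 hours from stage 12, and the no_DEX group (4 arrays) was kept without it. Arrays of both groups therefore carried the injected mRNA, and dexamethasone without the fusion was not analysed here. The labels number the arrays as biological replicates 1 to 4 of each group, without the number of embryos per array or whether equal numbers shared a clutch, so the p-values measure the spread between these samples. Arrays of equal number are called a pair below.

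NeuroD and NHLH proteins are basic helix-loop-helix (bHLH) transcription factors. In vertebrate neurogenesis the neurogenins act first and switch on NeuroD-family genes, whose products pair with E proteins and drive neuronal differentiation, while Id proteins hold E proteins in inactive pairs. In mouse pancreas, NeuroD1 lies downstream of Neurogenin 3 in endocrine cells, and in frog embryos NeuroD1 can turn ectoderm into neurons. The series asked which genes were higher once the fusion had been activated.

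On the arrays as a whole, values were log2 expression after RMA, with array medians of 6.02 to 6.12. Signal without a matching transcript was judged from 23 background controls, which ranged from 2.25 to 4.40, and 4.40 is used below as the upper edge of background. No probe set was listed under neurog3, so the injected mRNA could not be checked. Of 18 measured endoderm markers, 17 had means above background, the brightest being a2m.S at 13.02 with dexamethasone and 12.98 without. Markers of other tissues were also above background, with 13 of 13 for neural plate, 11 of 11 for epidermis and its glands, 8 of 8 for neural crest and 9 of 11 for skeletal muscle. These counts take the brightest probe set of each gene. Of all 32539 probe sets tested, 22220 had means above background, so such counts alone do not mark a tissue. The arrays thus carried signal for markers beyond endoderm, and in such a bulk sample a change in the number of cells of a type and a change in RNA per cell cannot be told apart.

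The probe sets of neurod4.L, nhlh1.L and neurod1.S stood higher with dexamethasone by means of 1.08, 0.99 and 0.63 on the log2 scale (n = 4 pairs). This was 2.12-fold for neurod4.L and 1.54-fold for neurod1.S, and no fold is given for nhlh1.L because its no_DEX mean, 4.25, lay within background. The differences lay in pairs 2, 1 and 3, in that order of size for each of these genes, and pair 4 stood at 0.12, −0.14 and −0.34. The homeologs neurod1.L and nhlh1.S differed by 0.17 and 0.14. None of the 5 passed the test over all probe sets, whether or not the replicate number was taken into account.

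**Figure D1:**
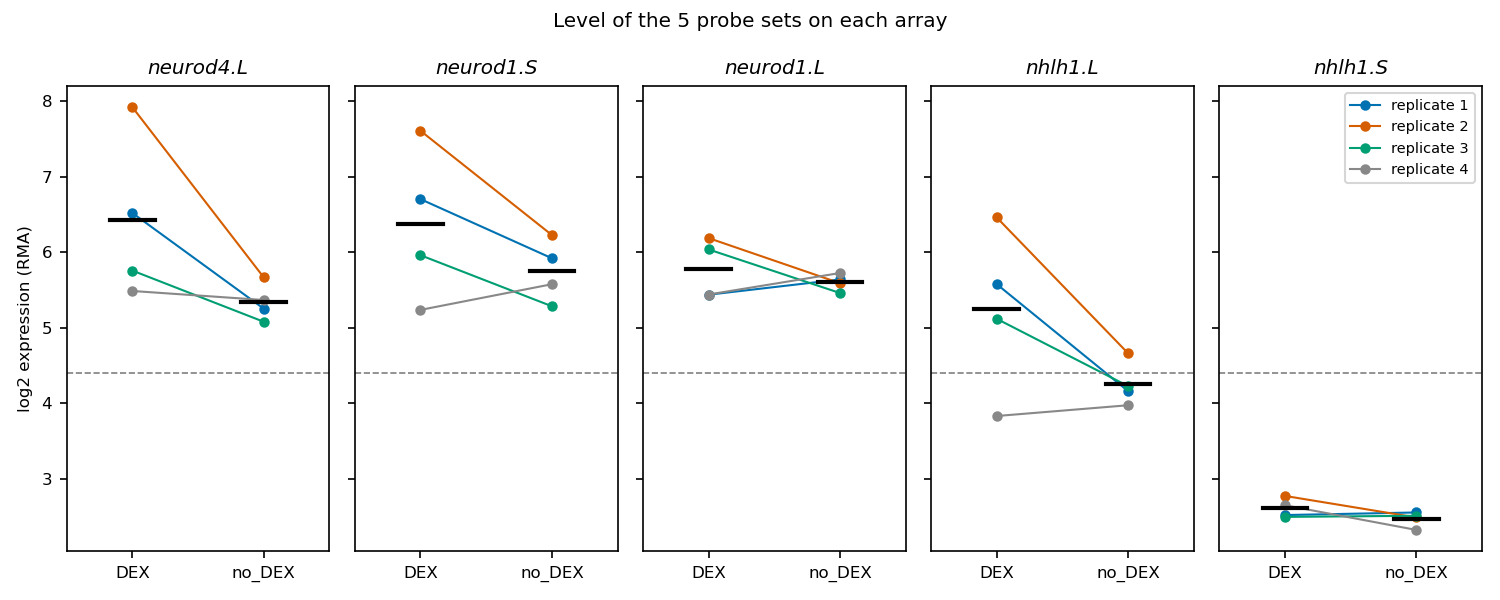
Log2 expression of the 5 probe sets on each array, DEX at the left and no_DEX at the right of each panel. Points are arrays, lines join arrays of equal replicate number, black bars are group means and the dashed line marks the highest background control (4.40). DEX replicate 2 is the highest DEX array in all 5 panels, and nhlh1.S lies below the dashed line on every array.

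The neurod4 gene, also known as Ath3, encodes a NeuroD-family factor of early neuronal differentiation. Its neurod4.L probe set (Xl2.1263.1.S1_at) measured 6.52, 7.92, 5.76 and 5.49 in DEX replicates 1 to 4, against 5.25, 5.67, 5.08 and 5.37 in no_DEX replicates 1 to 4. All 8 values were above background. DEX replicates 1, 2 and 3 lay above every no_DEX array, while DEX replicate 4 lay below no_DEX replicate 2, so the groups overlapped. The DEX arrays spread far more than the no_DEX arrays, with means of 6.42 ± 1.09 in DEX and 5.34 ± 0.25 in no_DEX (SD, n = 4 each). The log2 change was 1.08 with a standard error of 0.47 (limma, adjusted p = 1.00, unadjusted p = 0.0457). With the replicate number as a block the standard error was 0.29 (adjusted p = 0.168, unadjusted p = 0.00567). An exact permutation test over the 70 splits of 4 against 4 arrays gave a two-sided p of 0.0571, where the smallest possible is 0.0286.

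The change of neurod4.L was uneven between pairs. It was 1.27 in pair 1, 2.26 in pair 2, 0.68 in pair 3 and 0.12 in pair 4, all on the log2 scale as DEX minus no_DEX. In fold terms the difference was 4.78-fold in pair 2 and 1.09-fold in pair 4. Only 3 of the 32539 probe sets, neurod4.L included, differed upward by as much in pair 2, and 84 did in pair 1 and 174 in pair 3. In pair 4 it was within the bulk of the array, where 9118 probe sets were as high. Each of these differences rests on a single array per group and has no error of its own.

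Frog neurod1 (XNeuroD) encodes the NeuroD1 factor. The neurod1.S probe set (Xl2.26304.1.S1_at) measured 6.70, 7.61, 5.96 and 5.23 in DEX replicates 1 to 4, against 5.92, 6.23, 5.28 and 5.58 in no_DEX replicates 1 to 4. Here 2 DEX arrays, replicates 1 and 2, exceeded every no_DEX array, and DEX replicate 4 was the lowest of all 8. Group means were 6.38 ± 1.02 in DEX and 5.75 ± 0.41 in no_DEX (SD, n = 4 each), a log2 difference of 0.63 (limma, adjusted p = 1.00, and 0.311 once blocked by number). Within pairs the difference was 0.78, 1.38 and 0.68 in pairs 1, 2 and 3, and −0.34 in pair 4. In pairs 1, 2 and 3, 425, 46 and 177 of the 32539 probe sets were as high.

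The homeolog neurod1.L (Xl2.330.1.S1_at) measured 5.44, 6.19, 6.04 and 5.44 in DEX replicates 1 to 4, against 5.64, 5.59, 5.46 and 5.72 in no_DEX replicates 1 to 4. DEX replicates 2 and 3 were above, and DEX replicates 1 and 4 below, every no_DEX array. The means were 5.77 ± 0.39 in DEX and 5.60 ± 0.11 in no_DEX (SD, n = 4 each), and the log2 difference was 0.17 (limma, adjusted p = 1.00, and 0.744 once blocked). Its pair differences were 0.60 and 0.58 in pairs 2 and 3 and −0.20 and −0.28 in pairs 1 and 4. Only in pair 1 did the homeologs lie on opposite sides of 0, with neurod1.S at 0.78 and neurod1.L at −0.20. In pair 2 both were higher, neurod1.S at 1.38 and neurod1.L at 0.60.

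Frog nhlh1 (Hen1) encodes a bHLH factor of differentiating neurons. The nhlh1.L probe set (Xl2.49521.1.S1_at) measured 5.58, 6.46, 5.12 and 3.83 in DEX replicates 1 to 4, against 4.16, 4.66, 4.22 and 3.97 in no_DEX replicates 1 to 4. Among DEX arrays 3 were above background and among no_DEX arrays only replicate 2 was. The 3 DEX arrays above background were also above every no_DEX array, and DEX replicate 4 was the lowest of all 8. Its log2 change is thus measured against a no_DEX level within background. The means were 5.25 ± 1.10 in DEX and 4.25 ± 0.29 in no_DEX (SD, n = 4 each), a log2 change of 0.99 with a standard error of 0.47, or 0.27 with the block (limma, adjusted p = 1.00, and 0.173 once blocked).

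Pair by pair, nhlh1.L differed by 1.42, 1.80, 0.89 and −0.14 in pairs 1 to 4. In pairs 1, 2 and 3 the difference was among the highest 61, 14 and 69 of the 32539 probe sets. When pair 4 was left out of the fit with the block, nhlh1.L rose by log2 1.37 (limma, adjusted p = 0.0387). In that fit 47 probe sets rose, or 0.144% of those tested, and neurod4.L (log2 1.40, adjusted p = 0.100) and neurod1.S (0.95, adjusted p = 0.0615) did not pass. Leaving out a pair because its difference is small favours a call, so the value describes how much pair 4 weighs.

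The homeolog nhlh1.S (Xl2.437.1.S1_at) was within background on all 8 arrays. It measured 2.52, 2.77, 2.49 and 2.65 in DEX replicates 1 to 4, against 2.55, 2.48, 2.51 and 2.32 in no_DEX replicates 1 to 4. Its log2 difference of 0.14 (limma, adjusted p = 1.00, and 0.610 once blocked) is a difference between background signals, and no fold is drawn from it.

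**Figure D2:**
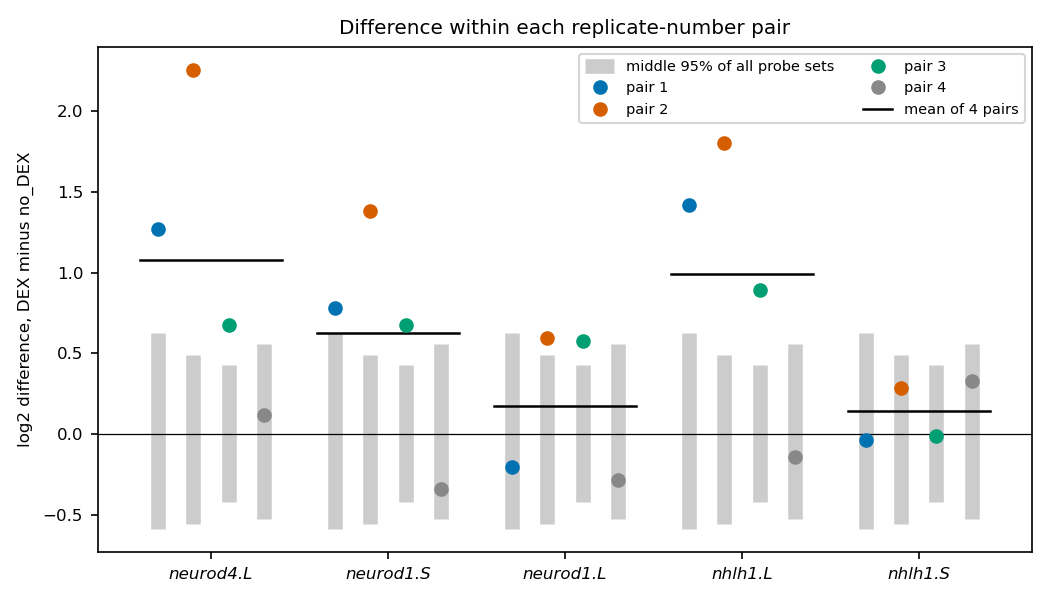
Log2 difference, DEX minus no_DEX, within each replicate-number pair for the 5 probe sets. Coloured points are pairs 1 to 4 from left to right, black bars are the mean of the 4 pairs and grey bars span the middle 95% of all 32539 probe sets in that pair. For neurod4.L, neurod1.S and nhlh1.L the points of pairs 1, 2 and 3 lie above the grey bars and the point of pair 4 lies inside.

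Across the family, 0 of the 5 probe sets passed in limma at an adjusted p under 0.05 in either fit. Among all probe sets, the fit without the block called 2 rises (0.00615%) and 0 falls (0%), and the fit with it called 107 rises (0.329%) and 73 falls (0.224%). At an unadjusted p under 0.05, 1 of the 5 was higher without the block (2.19% of all probe sets) and 3 of the 5 with it (6.4% of all probe sets). Of the 5, 1 was higher in 4 of 4 pairs, against 10.9% of all probe sets, and 0 had groups that did not overlap, against 1.58%. The median log2 change was 0.63 over the 5 probe sets and 0.002 over all probe sets tested.

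The order of the pairs was shared by 3 of the 5 genes. In neurod4.L, neurod1.S and nhlh1.L the difference was highest in pair 2, then pair 1, pair 3 and pair 4, an order found in 4.24% of all probe sets. The order was read from these 3 genes and only then counted, so the share describes it and is no test. Pair 2 held the highest difference for 4 of the 5, against 23.3% of all probe sets, and nhlh1.S was the exception with pair 4. The standard deviation over all probe sets was 0.28 in pair 2, against 0.31 in pair 1, 0.22 in pair 3 and 0.27 in pair 4. Differences of at least 1 in size were most frequent in pair 2, with 342 probe sets (1.05%). There were 324 (0.996%) in pair 1, 118 (0.363%) in pair 3 and 199 (0.612%) in pair 4. Without dexamethasone, too, replicate 2 was the highest no_DEX array for neurod4.L, neurod1.S and nhlh1.L. Without DEX replicate 2 the change fell to 0.58 for neurod4.L, 0.21 for neurod1.S and 0.59 for nhlh1.L, each still above 0. With both arrays of pair 2 left out, it was 0.69, 0.37 and 0.72 in the fit with the block.

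Whether the genes differed from each other in their change was tested on the 10 pairings of the 5 probe sets, as the difference of their log2 values within each array. None passed an exact permutation test over 70 splits after Benjamini-Hochberg adjustment, where the smallest raw p of 0.0286 gives 0.286. The change of neurod4.L exceeded that of neurod1.S by 0.46 ± 0.36 (SD over 4 pairs) in 4 of 4 pairs (exact p = 0.0286, adjusted p = 0.286). It exceeded that of nhlh1.L by 0.09 ± 0.32 in 2 of 4 pairs (exact p = 0.743, adjusted p = 0.825). Between the homeologs neurod1.S and neurod1.L the difference in change was 0.45 ± 0.51 in 3 of 4 pairs (exact p = 0.343, adjusted p = 0.490). The 4 pairings with nhlh1.S say nothing about a difference in change, since its signal was within background on all arrays. Of the others, neurod4.L minus neurod1.L was 0.91 ± 0.77, above 0 in 4 of 4 pairs. The differences were −0.37 ± 0.20 for neurod1.S minus nhlh1.L and −0.82 ± 0.71 for neurod1.L minus nhlh1.L, each above 0 in 0 of 4 pairs. With 4 arrays per group, even a pairing at the smallest possible p did not pass after adjustment, so neither equal nor unequal changes are shown.

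Signals of other tissues also differed between pairs. For skeletal muscle, 9 markers were above background (acta1.S and tnnt3.S were not). Their median signal was 7.90, 7.03, 6.93 and 6.09 in DEX replicates 1 to 4, against 9.24, 9.29, 8.67 and 5.56 in no_DEX replicates 1 to 4. The median pair differences of these markers were −1.35, −2.65 and −1.45 in pairs 1, 2 and 3 and 0.19 in pair 4. In pair 4 the no_DEX array itself had the lowest muscle signal of all arrays. Over 13 neural plate markers the median pair differences were 0.03, −0.36, −0.18 and −0.36 in pairs 1 to 4, and over 8 neural crest markers 0.12, −0.70, −0.37 and −0.24. Cranial placodes, another site of neurod1 and neurod4 expression, had 5 of 6 measured markers above background (tlx3.S was not). Their medians were 5.24, 5.80, 5.41 and 5.19 in DEX replicates 1 to 4, against 5.15, 5.46, 5.24 and 5.10 in no_DEX replicates 1 to 4. On every array this median was the value of ebf2.L, which is also in the list of downstream factors below, so it describes that gene alone. Of 14 endocrine cell markers, 7 were above background, with a median of 5.74 to 6.43 in DEX arrays and 5.87 to 6.55 in no_DEX arrays, while ins.L, ins.S and gcg.L were not above it. In limma with the block, 1 of the 14 passed, where 0.329% of all probe sets rose and 0.224% fell. Of 7 primary neuron markers, elavl3.L, runx1.L, tlx1.L and tubb2b.S were above background, and elavl4.L, stmn2.L and tlx3.S were not. The 4 had medians of 6.88, 7.60, 6.89 and 6.46 in DEX replicates 1 to 4, against 6.55, 7.08, 6.87 and 6.63 in no_DEX replicates 1 to 4. Their median pair differences were smaller, at 0.07, 0.01, −0.02 and 0.05 in pairs 1 to 4, but the genes did not move together. In pairs 1 to 4, elavl3.L differed by 0.72, 1.39, 0.73 and 0.66, and tubb2b.S by −0.49, −0.18, −0.16 and 0.13. Of the 7, 1 passed in limma with the block, elavl3.L, against the same shares of all probe sets. For the placode markers the median pair differences were −0.14, 0.08, −0.04 and 0.09. In the medians of cranial placodes (ebf2.L) and primary neurons, replicate 2 was the highest and replicate 4 the lowest DEX array, as for neurod4.L, neurod1.S and nhlh1.L. The median of epidermis and its glands had the same highest and lowest array, at 12.06, 12.43, 12.03 and 11.89 in DEX replicates 1 to 4. Its no_DEX medians, 12.019, 12.485, 12.206 and 11.707 in replicates 1 to 4, had the same highest and lowest replicate. Its median pair differences were 0.12, 0.01, −0.04 and −0.01 in pairs 1 to 4. The highest and lowest DEX array were therefore not particular to neural markers, but epidermis did not share the pair differences of neurod4.L, neurod1.S and nhlh1.L. In the median of endocrine cells, replicate 1 was the highest DEX array. Over the 17 endoderm markers above background the median pair differences were 0.69, 0.03, 0.10 and −0.07 in pairs 1 to 4. The part of these tissues in the bHLH differences was not tested.

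The partners of NeuroD proteins were measured by 4 E protein genes, the homeologs of tcf3 and tcf12, and 0 of the 4 passed in either fit (0 also at an unadjusted p under 0.05). The largest difference was 0.20 for tcf12.L and the lowest −0.02 for tcf3.S, and the list median was 0.05. Of 5 Id genes, which encode the inhibitors, 0 passed in either fit. At an unadjusted p under 0.05, 1 was higher without the block and 3 with it (2.19% and 6.4% of all probe sets). The Id list median was 0.21, from 0.02 for id2.S to 0.24 for id4.S (adjusted p = 0.300 with the block, limma).

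Of 8 other proneural bHLH genes measured, 7 had means within background and 0 passed in either fit. The gene above background was neurog2.S, with a mean of 5.83 and a log2 difference of 0.24 (limma, adjusted p = 0.315 with the block). Its pair differences were 0.42, 0.01, 0.31 and 0.24 in pairs 1 to 4, so pair 2 was its lowest. At an unadjusted p under 0.05, 1 was higher without the block and 2 with it (2.19% and 6.4% of all probe sets). The largest difference was that of atoh7.S, an Atonal-family gene of retinal neurons and 1 of the 7 within background. Of its arrays only DEX replicate 2 was above background. Its values were 3.72, 4.68, 4.04 and 3.28 in DEX replicates 1 to 4, against 2.90, 3.04, 3.10 and 3.31 in no_DEX replicates 1 to 4, a log2 difference of 0.84 (limma, adjusted p = 0.964, and 0.163 once blocked). DEX replicate 2 was again the highest, and pair 4 differed by −0.03. The lowest difference of the list was −0.06 for ascl2.L, also within background.

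**Figure D3:**
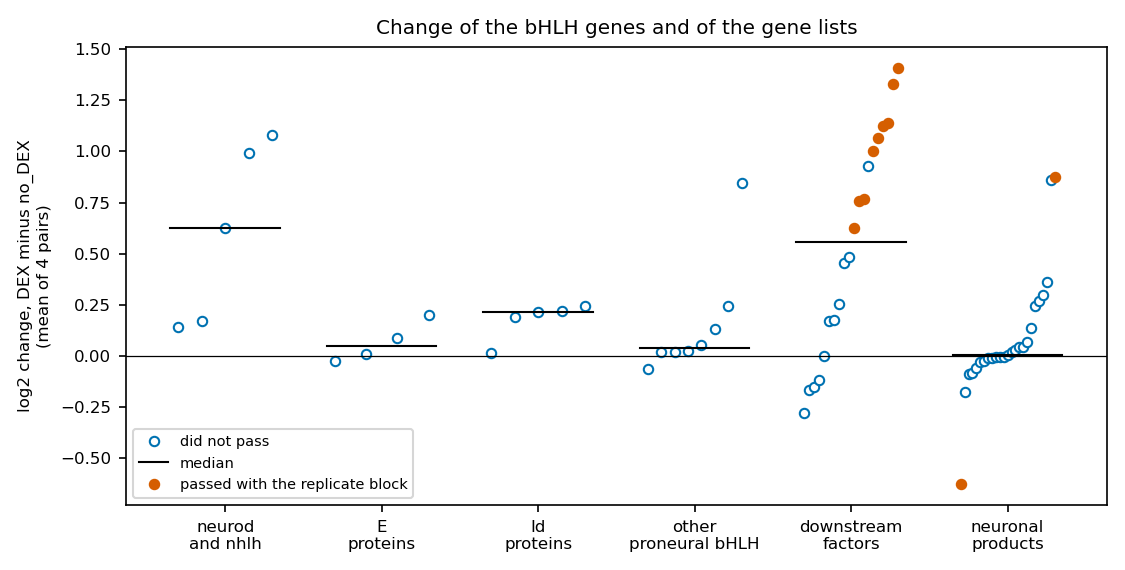
Log2 change, DEX minus no_DEX (mean of 4 pairs), of the 5 NeuroD and NHLH genes and of the genes of 5 lists. Each point is a gene, filled where it passed in limma with the replicate block, and black bars are medians. The list of downstream factors holds 9 filled points, all above 0, and the NeuroD and NHLH genes hold none.

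Genes known to lie downstream of neurogenin or NeuroD gave the most calls. Of 20 measured, 9 rose and 0 fell with the block, against 0.329% and 0.224% of all probe sets. Without the block 0 passed and 12 were higher at an unadjusted p under 0.05 (2.19% of all probe sets). The list median was 0.56. The 9 were insm1.L and myt1.S, zinc finger factors, the corepressor genes cbfa2t2.L, cbfa2t3.L (mean within background) and runx1t1.L, the repressor genes zbtb18.L and zbtb18.S, the Notch ligand gene dll1.L and gadd45g.L, which encodes a growth arrest protein. The lowest difference in this list was −0.28 for lhx2.L, a LIM homeobox gene, which did not pass. This list was drawn up with earlier results of these data known and is no independent evidence of a direction.

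The called downstream factors stood apart from neurod4.L, neurod1.S and nhlh1.L in pair 4. There the 9 called factors stood higher by 0.56 to 1.59, with a median of 0.82, while neurod4.L, neurod1.S and nhlh1.L stood at 0.12, −0.34 and −0.14. Of the other NeuroD and NHLH genes, neurod1.L stood at −0.28 in pair 4 and nhlh1.S, within background, at 0.33. Over all 20 measured genes of the list, called or not, the median in pair 4 was 0.32, against 0.41, 0.85 and 0.54 in pairs 1, 2 and 3. In pair 2 the called factors stood at 0.79 to 1.91, and neurod4.L, neurod1.S and nhlh1.L at 2.26, 1.38 and 1.80, within that range or above it. A call in the fit with the block nearly requires a difference in every pair, so the 9 were chosen in part by their values in pair 4, and this contrast was not tested.

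Among 25 measured genes of neuronal products, 1 rose and 1 fell with the block, against 0.329% and 0.224% of all probe sets. Without the block 0 passed and 2 were higher at an unadjusted p under 0.05 (2.19% of all probe sets). The neuronal RNA-binding gene elavl3.L measured 7.79, 8.51, 7.64 and 6.91 in DEX replicates 1 to 4, against 7.07, 7.12, 6.91 and 6.24 in no_DEX replicates 1 to 4. With the block it rose by log2 0.88 (limma, adjusted p = 0.0350, and 1.00 unblocked), with the highest difference, 1.39, in pair 2. A neuronal beta-tubulin gene, tubb3.L, fell with the block (log2 −0.63, limma, adjusted p = 0.0234, and 1.00 unblocked). The median of this list was 0.003, close to that of all probe sets. It was the value of nefm.S, whose mean lay within background. Only 13 of the 25 genes had means above background, so the median does not describe detected genes alone.

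The genes of most like pattern were sought among the named genes above background, by the root mean square difference between profiles over the 8 arrays after each was centred on its own mean. Among 8924 candidates the nearest to neurod4.L were pou4f4.S, a POU homeobox gene, at 0.246, the amino acid transporter gene slc43a2.S at 0.264, neurod1.S at 0.319, nhlh1.L at 0.321 and cbfa2t2.S at 0.336. The nearest to nhlh1.L were neurod1.S at 0.297 and neurod4.L at 0.321, followed by elavl3.L, the stathmin-family gene stmn3.S and slc43a2.S. The nearest to neurod1.S were slc43a2.S at 0.169, nhlh1.L at 0.297, angptl2.S, encoding an angiopoietin-like secreted protein, at 0.300, neurod4.L at 0.319 and ebf2.S, a gene of the EBF family that acts with NeuroD in frog primary neurogenesis, at 0.339. So neurod4.L, neurod1.S and nhlh1.L were each among the 5 nearest of the other 2. Of the same 8924 candidates, neurod1.L stood at rank 453 for neurod4.L and rank 805 for its own homeolog neurod1.S. The profiles were not scaled, and neurod1.L spanned 0.75, against 2.84 for neurod4.L and 2.37 for neurod1.S. A smaller span alone can lower a rank, so the ranks by themselves do not show a different shape. The profiles did differ on DEX replicate 1, where neurod1.L (5.44) lay below every no_DEX array. On that array neurod4.L (6.52) and neurod1.S (6.70) lay above every no_DEX array. How much of the ranks comes from span and how much from shape was not tested. The likeness covers both the group difference and the spread between replicate numbers. It describes these arrays only, since nhlh1.L reached a mean above background through its DEX arrays (1 of 4 no_DEX arrays was above) and the top of the span asked of each gene was DEX replicate 2.

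**Figure D4:**
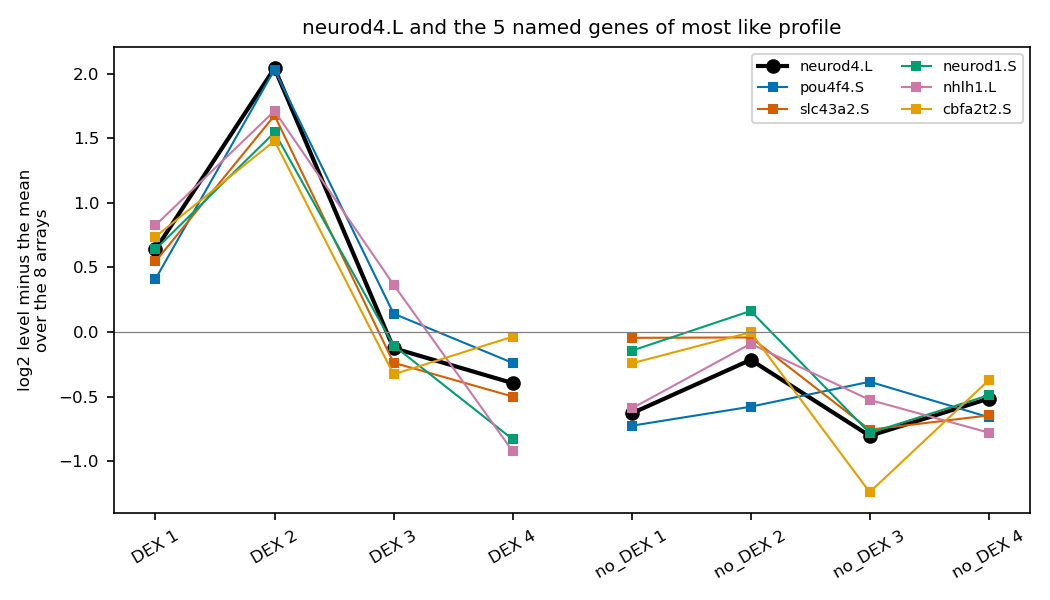
Log2 level minus the mean over the 8 arrays for neurod4.L (black) and its 5 most like named genes, on the DEX arrays at the left and the no_DEX arrays at the right. Points are arrays, and lines only join the points of a gene. All 6 genes are highest on DEX replicate 2.

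The nearest gene, pou4f4.S, measured 7.05, 8.67, 6.78 and 6.40 in DEX replicates 1 to 4, against 5.91, 6.06, 6.25 and 5.98 in no_DEX replicates 1 to 4. All 4 DEX arrays lay above all no_DEX arrays, and replicate 2 was far above the others. Its log2 change of 1.17 did not pass (limma, adjusted p = 1.00, and 0.173 once blocked), and its difference in pair 2 was 2.61. Its likeness to neurod4.L, pair 2 included, is what chose it. The gene slc43a2.S differed by 1.72 in pair 2 and by 0.15 in pair 4. Its mean difference was 0.74 (limma, adjusted p = 0.207 with the block).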

How the data were processed

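RNA from 8 samples was measured on Affymetrix arrays. Per the submitters' processing notes the values were made with RMA, and the deposited table holds log2 expression, 1 column per array. Software versions were not given in the sources used here. Of 32635 probe sets, 96 controls were left out. Symbols came from the platform annotation (15495 probe sets with 1 symbol, 279 with several), updated through the gene table of Xenopus_laevis_v10.1, which changed 2.

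All 32539 probe sets were fitted with limma 3.58.1 in R 4.3.3 (lmFit, eBayes, two-sided), with Benjamini-Hochberg adjustment over all of them and a threshold of 0.05, without a block and with the replicate number as a block. The deviations of equal-numbered arrays from their group means correlated at 0.63, 0.78, 0.77 and 0.69, each over 0.1. On that basis equal numbers were treated as pairs. Arrays of unequal number correlated at −0.52 to 0.20. Of these, DEX replicate 1 with no_DEX replicate 2 (0.20) and DEX replicate 4 with no_DEX replicate 3 (0.16) were also over 0.1. The fits were tested on simulated data. The brightest probe set stood for a gene in the lists.

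The NeuroD and NHLH genes, the lists and the tests were chosen with earlier results of these data known. Named were all 5 NeuroD and NHLH genes, list genes that passed in either fit, and the highest and lowest change of each list. The 5 most like genes were named for each of the 5 that was above background and spanned at least 1 on the log2 scale. Also named were the brightest marker where given and neurog2.S, the other proneural bHLH gene above background. Alternatives were another normalization, centring, a filter on dim probe sets, an intensity trend, a random block and left-out arrays or pairs. The number of arrays limits the precision.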

Additional observations from a re-analysis of the deposited data

Results flagged for a closer look

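Of 46 groups of 4 arrays checked in 23 genes, 4 held an array far from the other 3, and chance flags about 1 in 20. None was in a NeuroD or NHLH gene. On DEX replicate 2, cbfa2t2.L stood at 9.93 against 9.25 to 9.34 on the other DEX arrays. On the same array insm1.L stood at 8.81 against 8.21 to 8.29. On DEX replicate 4, lhx2.L stood at 5.35 against 6.27 to 6.41. On no_DEX replicate 1, id4.S stood at 8.26 against 8.67 to 8.72 on the other no_DEX arrays.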

How the results depend on the processing

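The direction of all 5 NeuroD and NHLH genes held under every alternative run. Only nhlh1.L, with the replicate block and without pair 4, crossed the threshold (log2 1.37). With arrays or pairs left out, log2 changes ranged from 0.58 to 1.40 for neurod4.L, 0.59 to 1.46 for nhlh1.L, 0.21 to 1.01 for neurod1.S, 0.03 to 0.32 for neurod1.L and 0.08 to 0.20 for nhlh1.S. The filter on dim probe sets removed nhlh1.S. Over all probe sets, 107 rose and 73 fell with the replicate block, and 89 and 39 with the number as a random block, against 2 and 0 without. Left-out arrays gave 0 to 2 rises and 0 or 1 falls, and with the block 22 rises and 12 falls were left without pair 1, 4 and 0 without pair 2, 17 and 9 without pair 3 and 47 and 73 without pair 4, from fewer arrays. With the block the lists gained 9 rises among downstream factors, and 1 rise and 1 fall among neuronal products. The sign-flip test of the pair differences, whose smallest p is 0.125, changed no comparison between genes. No other call on these genes or lists changed with the block. Depth per probe set is not recorded in log2 values, and signals under 4.40 cannot be told from background.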

Other observations

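For 2 genes with a profile like that of neurod1.S, the homeologs stood on opposite sides of 0. The angptl2.S probe set measured 5.89 ± 0.82 in DEX and 5.21 ± 0.57 in no_DEX (SD, n = 4 each) and rose with the block by log2 0.68 (limma, adjusted p = 0.0490, and 1.00 without the block). The brightest angptl2.L probe set stood at 6.47 ± 0.57 in DEX and 7.16 ± 0.91 in no_DEX, a log2 difference of −0.69 that did not pass (limma, adjusted p = 0.124 with the block). For slc43a2 the .S homeolog differed by 0.74 and the .L homeolog by −0.33, and neither passed. The differences between the homeologs of angptl2 and of slc43a2 were not tested.

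The stathmin-family gene stmn3.S, which regulates microtubules in neurons, measured 6.08, 6.28, 5.43 and 4.74 in DEX replicates 1 to 4, against 5.07, 4.76, 4.84 and 4.43 in no_DEX replicates 1 to 4. Its log2 difference of 0.86 did not pass (limma, adjusted p = 0.0959 with the block), and its pair differences of 1.01, 1.52, 0.59 and 0.31 were highest in pair 2. Its homeolog stmn3.L lay within background at 3.54 in DEX and 3.60 in no_DEX.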
